A study of Mus musculus with 12 samples.

Results

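The genes described here encode mitochondrial ribosomal proteins and were taken by name: every gene symbol in the deposited count tables that begins with Mrpl or Mrps followed by a digit. The rule found 78 of 24787 genes, 49 Mrpl genes named for the large subunit and 29 Mrps genes named for the small subunit. The rule uses names only, but it was set with earlier results of these data known. All 78 had enough counts to be tested, with 90 to 5071 counts per gene and library.

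RNA was sequenced from livers of C57Bl/6 mice in 12 libraries, 4 in each of 3 groups. Mice in the ND group ate a normal diet. The HFD group ate a high-fat diet and received vehicle, and the HFD+MEC1 group ate the same diet and received MEC1, a compound known here by its code name. The diets were fed for 2 months, after which the mice on the high-fat diet were randomised to daily injection into the peritoneum of vehicle or of 0.5 mg/kg MEC1. Sex, age, length of dosing and any injection of the ND mice are not given in the sources used here, so diet and injection cannot be told apart in the comparisons with ND. The labels do not tie each library to a separate mouse, and p-values measure the spread between these samples only.

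Mitochondria carry their own small genome, and the mitochondrial ribosome translates the messenger RNAs made from it, which encode core subunits of the respiratory chain and of ATP synthase. All of its proteins are encoded in the nucleus, made in the cytosol and imported. The large subunit forms peptide bonds at the inner membrane, and the small subunit holds the messenger RNA and reads the codons. Liver cells are rich in mitochondria.

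Library totals ran from 39916405 to 51340317 counts, and 14172 genes were tested. Markers of hepatocytes were abundant, with a summed 98311 ± 6035 CPM (counts scaled to a common library size) in ND, 94809 ± 5197 in HFD and 85980 ± 11660 in HFD+MEC1 (SD, n = 4, as throughout), and 2 of the 7, Cps1 and Ass1, fell on HFD. The 10 macrophage and Kupffer cell markers summed to 277 to 409 CPM in ND, 326 to 499 in HFD and 382 to 518 in HFD+MEC1, with 0 of 10 past the threshold in edgeR. All 10 lay above 0 in both high-fat groups against ND, with median log2 fold changes of 0.22 (HFD) and 0.36 (HFD+MEC1). Against ND in HFD+MEC1, 1 of 7 endothelial markers rose (Clec4g, log2 fold change 0.49 ± 0.12 SE, adjusted p = 0.0306) and 2 of 7 hepatocyte markers fell. Of 6 cholangiocyte markers 1 fell, Epcam (-1.59 ± 0.35 SE, adjusted p = 0.0148), at low levels of 2.03 CPM in ND and 0.68 in HFD+MEC1. In that list 5 markers lay below 0 and 1, Sox9, above it (0.34). Of 7 stellate cell and fibroblast markers, 5 lay below 0 in HFD and 7 in HFD+MEC1 against ND (medians -0.29 and -0.32), with 0 past the threshold. All 4 tested neutrophil markers lay above 0 in both comparisons with ND, with 0 past the threshold, and summed to at most 13.3 CPM. Lymphocyte markers did not exceed 3.95 CPM in total in any library, and erythroid markers ranged from 1831 to 6579 CPM. The part of cell makeup in the results below was not tested, and in bulk liver fewer cells of a type cannot be told apart from less RNA per cell.

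Levels per length, from the deposited RPKM (reads scaled by gene length and by library total), differed far more between members than between groups. In the large subunit the mean over 12 libraries ran from 1.99 RPKM for Mrpl19 to 71.9 RPKM for Mrpl12, with a median of 14.9. Mrpl12, which forms the stalk that recruits translation factors and is also known to bind the mitochondrial RNA polymerase, stood at 65.2 ± 6.12 RPKM in ND, 79.6 ± 8.29 in HFD and 70.9 ± 5.17 in HFD+MEC1. Mrpl14 (47.9 RPKM) and Mrpl52 (40.6) came next, and Mrpl35 (4.31) and Mrpl23 (4.55) lay nearest to Mrpl19. Mrpl12, Mrpl14 and Mrpl52 were the 3 highest, in that order, in each of the 3 groups.

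In the small subunit the range was narrower, from 3.07 RPKM for Mrps25 to 40.7 for Mrps34, with a median of 14.8. Mrps21 (33.7 RPKM) and Mrps12 (29.4), a protein of the decoding centre, followed Mrps34, and Mrps36 (3.43) and Mrps11 (7.56) followed Mrps25. Opposite-strand genes cover 69.8% of the exonic bases of Mrps25 (Nr2c2) and 63.4% of those of Mrps34 (Mapk8ip3), and since strand use in counting is not given, the levels of both genes are uncertain. For Mrpl19 the covered share was 36% (Gcfc2). Across all members 28 share exonic bases with a gene on the other strand, and 6 of them over 25% of those bases. On the same strand, Nme3 covers 37% of the exonic bases of Mrps34, and Gm42688 covers 88% of those of Mrpl53. Counting by strand would not separate these.

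**Figure D1:**
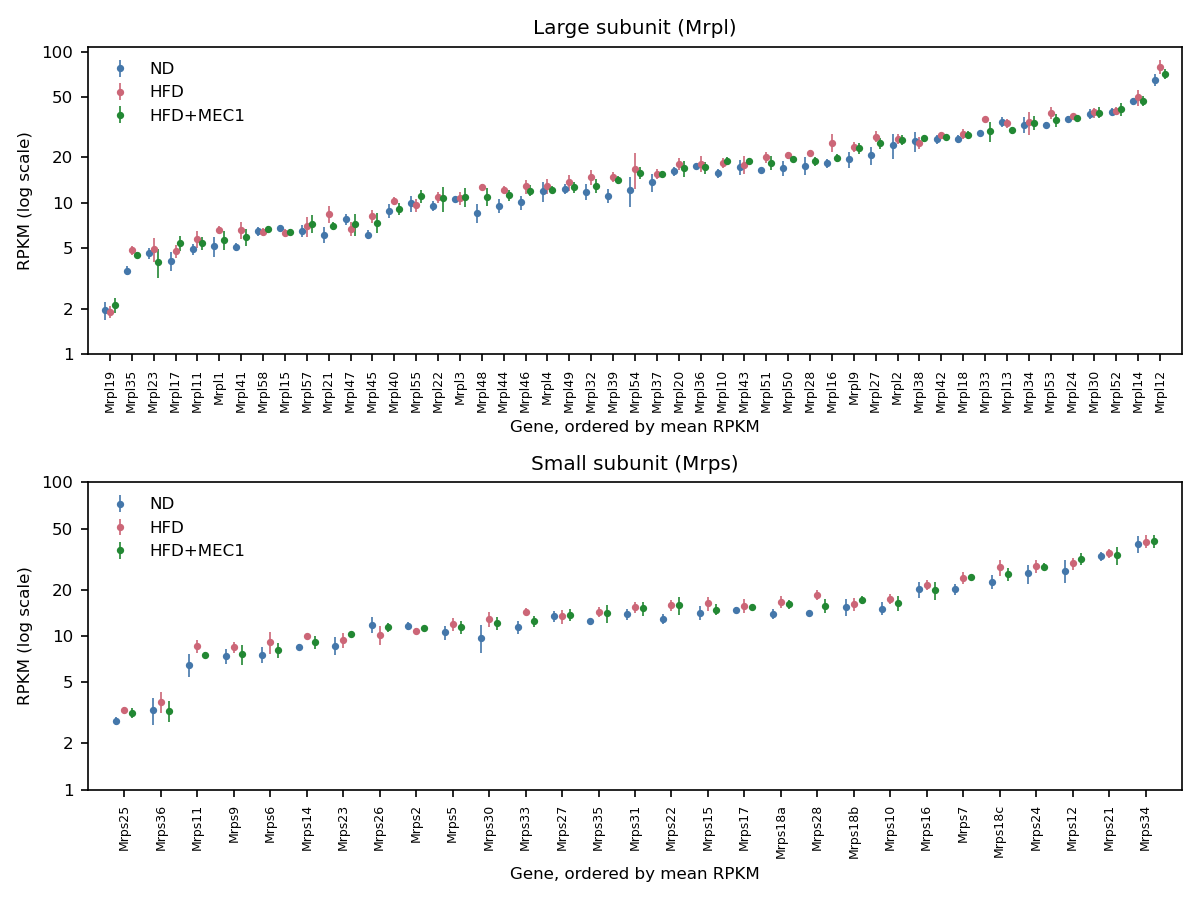
Mean RPKM (log scale) of each large subunit gene (top) and small subunit gene (bottom) in ND, HFD and HFD+MEC1, ordered by the mean over 12 libraries; bars are SD of 4 libraries. Levels run from 1.99 RPKM (Mrpl19) to 71.9 RPKM (Mrpl12), and the 3 groups of a gene lie close together beside that range.

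The members share features of their gene starts that played no part in their choice. RefSeq promoter windows (GRCm38.p6, 250 bases before to 50 after a start) matched 69 of the 78. The ETS word CCGGAAG, on either strand, was present for 26 of these (37.7%), against 18.6% of the tested genes with a window and 9.93% of all genes in the RefSeq table. The NRF1 core word GCATGCGC was present for 8 members (11.6%, against 5.55% of tested genes and 3.05% of all genes), and the YY1 core word AAGATGGCG also for 8 (11.6%, against 3.28% and 1.64%). The E-box CACGTG was present for 5 members (7.25%), against 11.4% of tested genes and 8.09% of all genes; counted by window it was 9.33% of the 75 member windows and 7.15% of all windows, so its order against all promoters depends on the unit. At least one of the first 3 words was found for 36 members (52.2%) and 25.1% of tested genes. Genes of the cytosolic ribosome came close to the members: 49.2% had at least one of the 3 words and 37.7% the ETS word. By subunit, the NRF1 core word was present for 16.3% of Mrpl genes and 3.85% of Mrps genes with a window, and the YY1 core word in 9.3% and 15.4%.

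Stretches of 4 windows are shown, those of the 3 members that passed the test on HFD and of Mrps26, the small subunit gene with the most negative difference there. Each is printed 5′ to 3′ on the strand of its gene with a matched word in capitals. For Mrpl48 (chr7:100583131-100583230, minus strand, -100 to -1 from the start) the capitals mark the ETS word read on the other strand; for Mrpl39 (chr16:84735295-84735394, minus strand, -150 to -51) a longer NRF1 word, spelled by the capitals, which contains the core word on both strands; for Mrpl35 (chr6:71823741-71823770, minus strand, positions 15 to 44 of the transcript) a longer YY1 word that contains its core word; and for Mrps26 (chr2:130563657-130563756, plus strand, -100 to -1) again the ETS word on the other strand. A match describes the letters only. The RefSeq starts used here lie inside the starts that GENCODE draws, by 25171 bases for Mrpl48, 3185 for Mrpl35, 498 for Mrpl39 and 15 for Mrps26, and gene positions and neighbours in the text follow GENCODE.
Mrpl48: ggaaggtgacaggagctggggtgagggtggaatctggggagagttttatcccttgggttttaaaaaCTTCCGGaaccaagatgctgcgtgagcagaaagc
Mrpl39: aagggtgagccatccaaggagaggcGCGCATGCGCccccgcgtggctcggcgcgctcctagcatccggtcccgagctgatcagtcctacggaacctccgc
Mrpl35: gcaggctgcAAGATGGCGGCttccatcttc
Mrps26: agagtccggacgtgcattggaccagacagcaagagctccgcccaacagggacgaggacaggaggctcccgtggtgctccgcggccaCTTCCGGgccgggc

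Many members also start beside another gene. A protein-coding start on the opposite strand lay within 1000 bases for 33 of 78 members (42.3%), against 2028 of 13249 tested coding genes (15.3%). Mrps12 shares its start region with Sars2, the mitochondrial seryl-tRNA synthetase gene, Mrpl43 with Twnk, the mitochondrial DNA helicase gene, and Mrpl36 with Ndufs6, a gene of respiratory complex I. Mrpl46 and Mrps11, 1 gene of each subunit, start head to head on opposite strands. Members lay on 17 chromosomes.

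**Figure D2:**
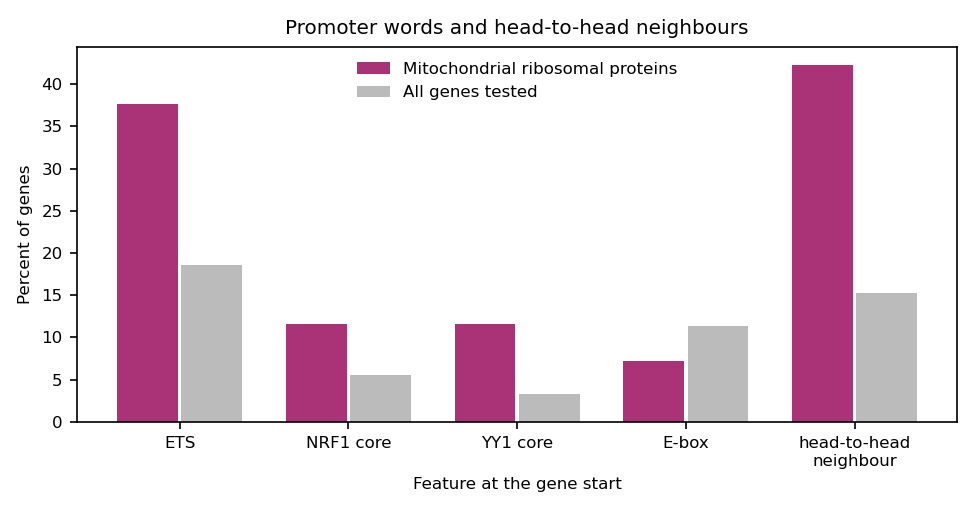
Percent of genes whose start carries each feature, for mitochondrial ribosomal protein genes (purple; 69 with a promoter window, 78 for neighbours) and all genes tested (grey; coding genes for neighbours). The bars for the ETS, NRF1 core and YY1 core words and for head-to-head neighbours are higher for the members (37.7, 11.6, 11.6 and 42.3%), and the E-box bar is lower (7.25%).

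HFD was compared with ND for the effect of the high-fat diet. In the large subunit 3 of 49 genes rose and 0 fell, and 46 did not pass an adjusted p of 0.05. Over all genes tested 3.35% rose, 2.95% fell and 6.30% did either, and the large subunit share was 6.12% rising. The count depended on the setting: with library totals 9 of 49 rose (18.4%, against 6.39% of all genes tested), with RPKM and a pseudocount of 0.1 there were 8 (16.3%, against 4.67%), and with DESeq2 5 (10.2%, against 5.06%). Without HFD replicate 2 or 3 or ND replicate 3 or 4 it was 1, and without HFD replicate 4 it was 5. Whether the share differs from the background was not tested. The median log2 fold change of the 49 was 0.09 (0.05 without ND replicate 4), with 33 above 0 and 16 below, against -0.003 and 49.4% above 0 over all genes tested. Single genes ran from -0.31 (Mrpl47) to 0.48 (Mrpl48), and the median size of the difference was 0.13, against 0.19 for all genes tested and 0.15 for the 8845 genes within the members' range of CPM. The 95% intervals of all 49 lay within a 2-fold difference in either direction, and 45 within 1.5-fold.

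Mrpl48, a protein on the outer side of the large subunit (chromosome 7, 100545751 to 100608301), measured 11.2, 10.8, 13.5 and 12.4 CPM in the ND libraries and 17.5, 16.5, 16.2 and 16.9 CPM on HFD. All HFD libraries were higher than all ND libraries. It rose by a log2 fold change of 0.48 ± 0.11 (SE, 95% interval 0.26 to 0.71, adjusted p = 0.014). Its call held in each of the other settings run; 8.7% of its exonic bases are shared with Rab6a on the other strand, and it has 1 named pseudogene.

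Mrpl35, a member with bacterial relatives (chromosome 6, 71812997 to 71826969), measured 18.2, 18.7, 14.9 and 17.7 CPM in ND and 21.6, 23.6, 22.3 and 21.2 CPM on HFD. The groups did not overlap. It rose by 0.35 ± 0.09 on the log2 scale (95% interval 0.16 to 0.55, adjusted p = 0.0274). The call was lost without HFD replicate 1, 2 or 3 or ND replicate 1, 3 or 4, where the adjusted p ran from 0.0505 to 0.0797.

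Mrpl39, a protein found in the mitochondrial but not the bacterial large subunit (chromosome 16, 84717576 to 84735742), measured 32.0, 26.5, 24.8 and 25.8 CPM in ND and 34.8, 35.6, 34.4 and 31.3 CPM on HFD. ND replicate 1 stood above the lowest HFD library, so the groups overlapped. It rose by 0.32 ± 0.09 (95% interval 0.13 to 0.51, adjusted p = 0.0422). The call was lost when HFD+MEC1 was left out of the fit (adjusted p = 0.0659) and without any of HFD replicates 1, 2 and 3, ND replicates 2, 3 and 4 or HFD+MEC1 replicates 2 and 4, where it ran from 0.0574 to 0.136.

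**Figure D3:**
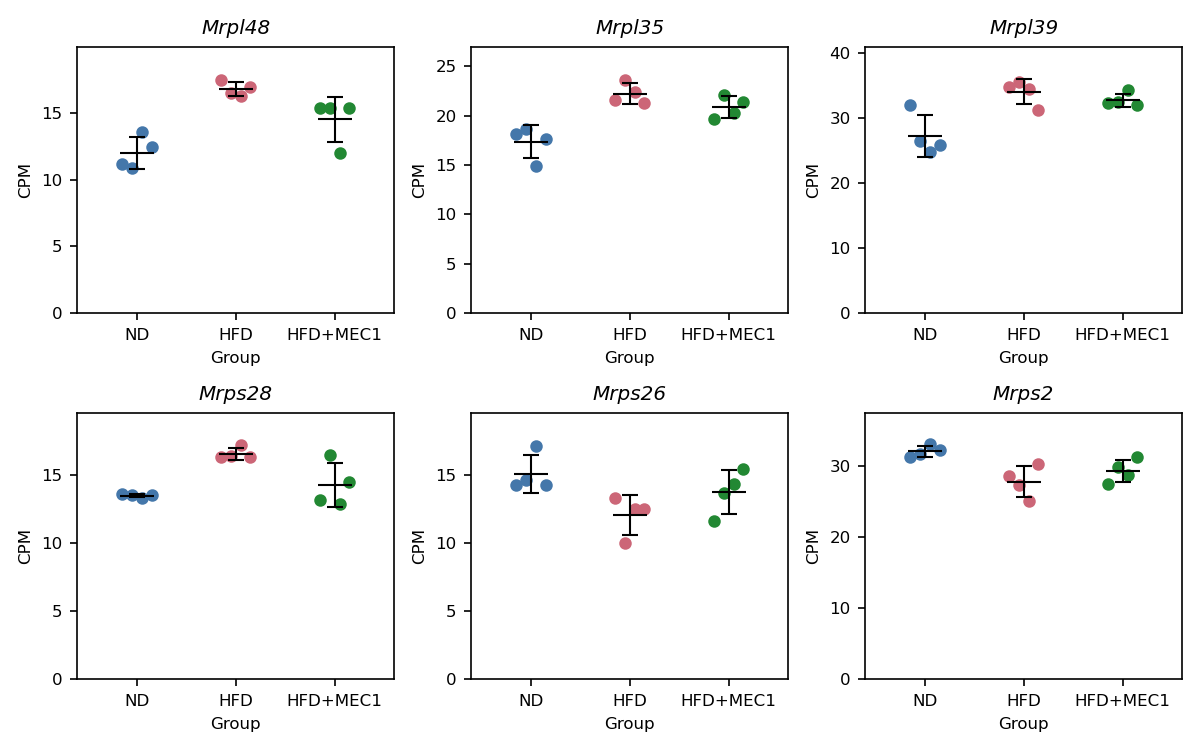
CPM of 6 members in each library (points) with mean and SD of 4 libraries per group (bars). Mrpl48, Mrpl35 and Mrps28 have every HFD library above every ND library, Mrps26 and Mrps2 have every HFD library below, and Mrpl39 overlaps.

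Of the large subunit genes, 9 had every HFD library above every ND library and 2 had every one below, against 7.46% and 6.81% of all genes tested. Mrpl45, which anchors the ribosome to the inner membrane near the exit of the peptide tunnel, measured 21.0, 18.8, 20.4 and 19.1 CPM in ND and 24.1, 27.7, 24.4 and 22.2 CPM on HFD, without overlap. Its log2 fold change was 0.31 ± 0.10 (adjusted p = 0.0625), and it passed with DESeq2 (adjusted p = 0.0406), with RPKM and a pseudocount of 0.1 (0.0485), with library totals (0.0284) and without HFD replicate 4 (0.0482). Mrpl44, related to a ribonuclease, measured 18.0 ± 1.5 CPM in ND and 21.5 ± 0.68 on HFD, also without overlap (0.26 ± 0.09, adjusted p = 0.0857).

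The 2 genes with lower HFD libraries did not pass either. Mrpl47, a protein near the tunnel exit, measured 8.44, 10.5, 8.56 and 8.67 CPM in ND and 6.89, 8, 6.02 and 8.32 CPM on HFD (log2 fold change -0.31 ± 0.14, adjusted p = 0.232). Opposite-strand genes Actl6a and Ndufb5 cover 24.2% of its exonic bases. Mrpl15, whose bacterial relative binds ribosomal RNA, measured 38.2, 40.3, 34.3 and 38.9 CPM in ND and 32.8, 33.4, 33.2 and 31.9 CPM on HFD (-0.21 ± 0.07, adjusted p = 0.112).

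In the small subunit 0 of 29 genes passed edgeR's test of HFD against ND. At an unadjusted p under 0.05 there were 6, against 20.7% of all genes tested. DESeq2 called 1, which rose (3.45%, against 5.06% of all genes tested rising in that fit). With RPKM 3 rose at a pseudocount of 0.1 (10.3%, against 4.67%) and 2 at a pseudocount of 1 (6.9%, against 4.47%). With library totals 2 rose (6.9%, against 6.39%), and without ND replicate 3 it was 1 (3.45%, against 2.57%). Whether these shares differ from the background was not tested. The median log2 fold change was 0.10, with 21 genes above 0 and 8 below, and single genes ran from -0.32 to 0.31. All 29 intervals lay within 1.5-fold. In 1 gene every HFD library was above every ND library and in 2 every one was below, against 7.46% and 6.81% of all genes tested.

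Mrps28, the gene with higher HFD libraries, measured 13.6, 13.5, 13.3 and 13.5 CPM in ND and 16.3, 16.4, 17.2 and 16.3 CPM on HFD. Its spread was small in both groups, and the log2 fold change was 0.30 ± 0.10 (adjusted p = 0.0794). It passed with DESeq2 (adjusted p = 0.0448), with RPKM (0.0171 with a pseudocount of 0.1) and with library totals (0.0227). Mrps26, found in mitochondrial but not bacterial ribosomes, measured 14.2, 14.6, 17.1 and 14.2 CPM in ND and 13.3, 9.97, 12.5 and 12.5 CPM on HFD (-0.32 ± 0.12, adjusted p = 0.13). Mrps2, the relative of a conserved bacterial small subunit protein, measured 31.2, 31.7, 33.0 and 32.3 CPM in ND and 28.6, 27.2, 25 and 30.2 CPM on HFD (-0.21 ± 0.08, adjusted p = 0.151). Both genes had all HFD libraries below all ND libraries.

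The comparison of HFD+MEC1 with HFD asked what the compound did on the high-fat diet. None of the 78 members passed edgeR's test, against 0.00706% higher, 0.0212% lower and 0.0282% in either direction over all genes tested. At an unadjusted p under 0.05 there were 2 large subunit genes and 1 small subunit gene, against 14.8% of all genes tested. DESeq2, limma-voom, the RPKM fits and the other settings run also called 0 members. Of 14172 genes tested DESeq2 called 365, with 135 higher (0.953%) and 230 lower. Without HFD+MEC1 replicate 1, edgeR called 460 genes, 174 higher (1.23%) and 286 lower, and 0 of them were members. At such small shares, 0 of 78 says little about the members as a set.

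The large subunit had a median log2 fold change of -0.06, with 16 genes above 0 and 33 below, and the small subunit one of -0.04, with 9 above and 20 below. Without HFD+MEC1 replicate 3 these medians were -0.04 and -0.02, without replicate 1 the large subunit median was -0.04, and without replicate 4 the small subunit median was -0.08. The median of all genes tested was 0.01. The 95% intervals of all 78 lay within 2-fold and those of 76 within 1.5-fold. In the large subunit 5 genes (Mrpl1, Mrpl28, Mrpl32, Mrpl33 and Mrpl48) had every HFD+MEC1 library below every HFD library, against 3.98% of genes tested, and 0 had every one above, against 3.13%. In the small subunit there was 0 in either direction.

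Mrpl33 measured 20.2, 22.4, 19.6 and 21.0 CPM in HFD and 19.2, 16, 15.5 and 19.2 CPM in HFD+MEC1 (difference on the log2 scale -0.25 ± 0.10, adjusted p = 0.227). Its ND libraries lay at 17.2 to 18.6 CPM, between the lowest and highest HFD+MEC1 libraries. Mrpl1, whose bacterial relative forms the stalk beside the exit site for transfer RNA, measured 33.7, 37.3, 33.4 and 33.3 CPM in HFD and 31.2, 32.3, 24.7 and 30.6 CPM in HFD+MEC1 (-0.21 ± 0.12, adjusted p = 0.416). Mrpl48 measured 15.3, 15.3, 12 and 15.4 CPM in HFD+MEC1, below the HFD values given above (-0.21 ± 0.11, adjusted p = 0.385). Replicate 3 was the lowest library for each of these 3 genes.

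**Figure D4:**
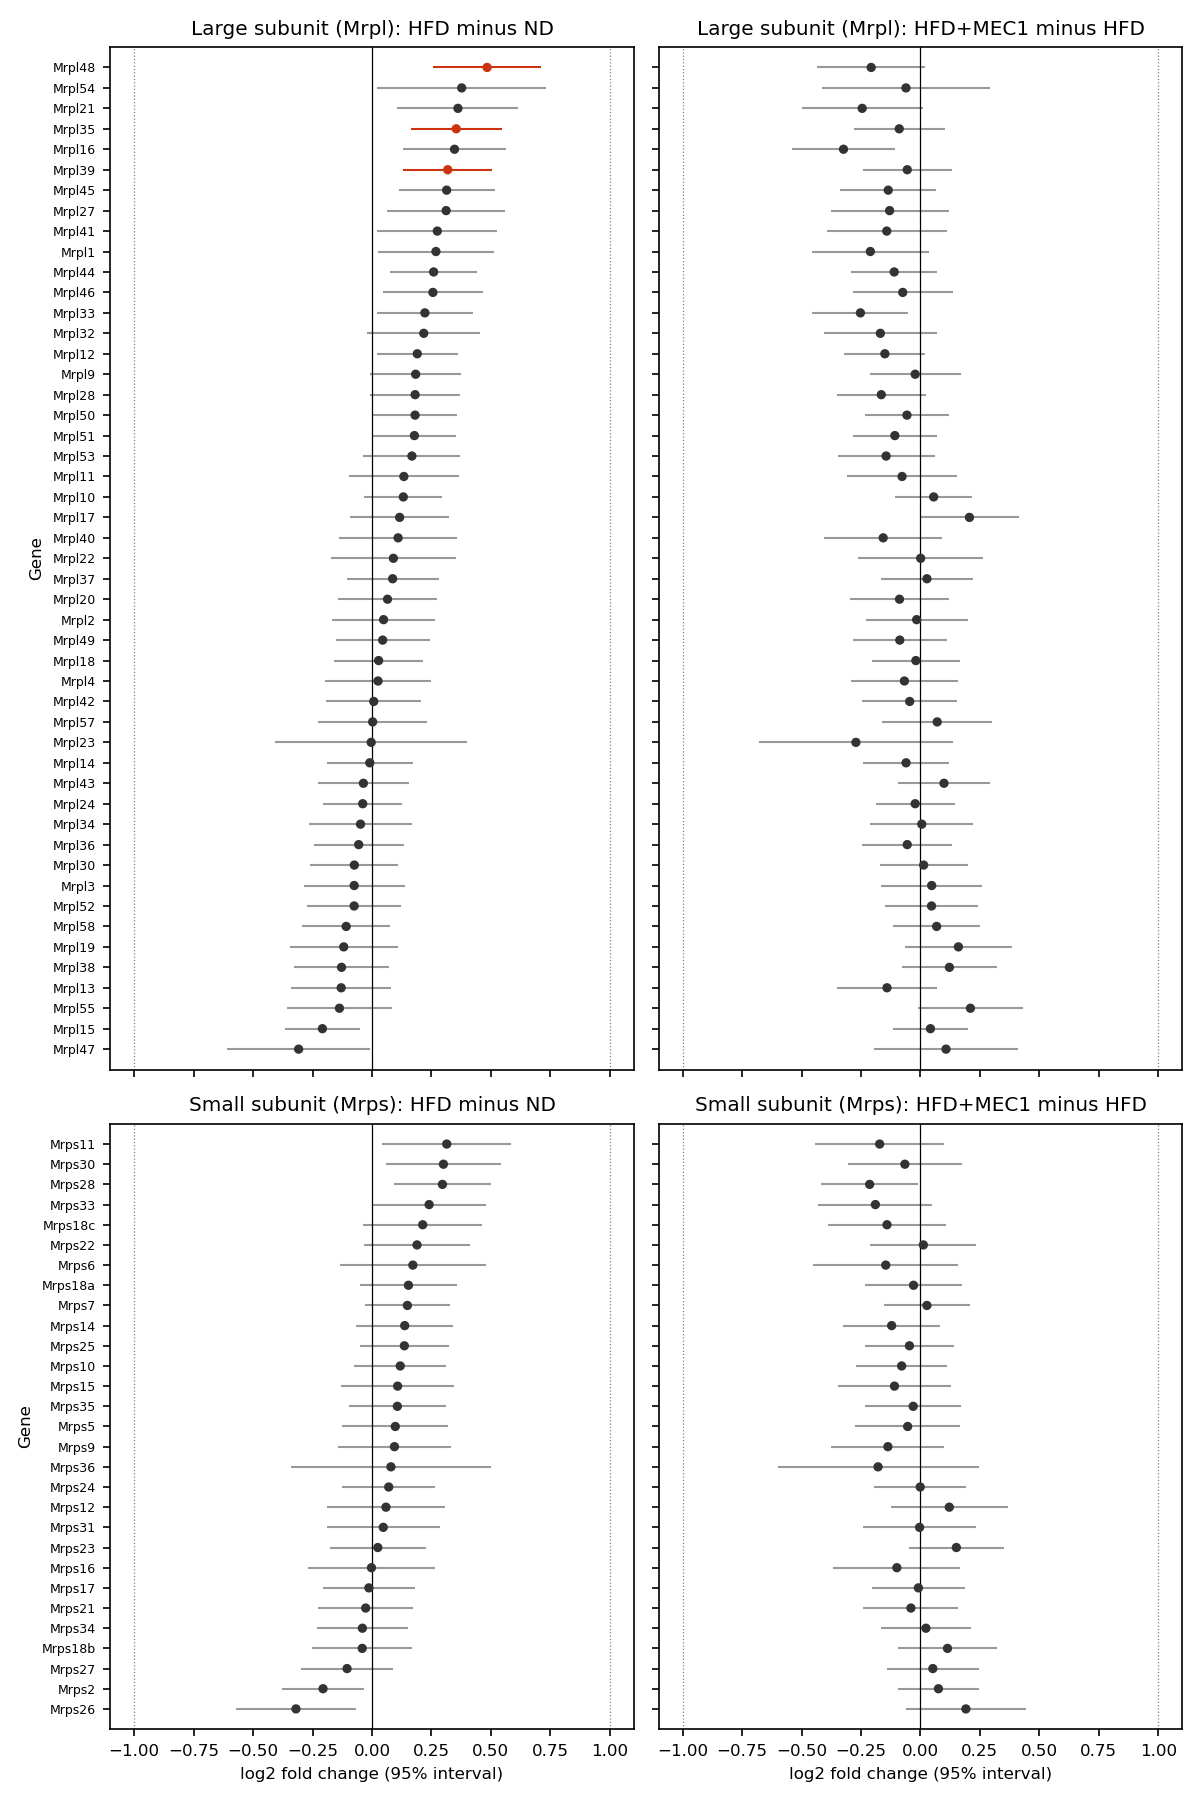
Log2 fold change with 95% interval for each large subunit gene (top) and small subunit gene (bottom), HFD minus ND on the left and HFD+MEC1 minus HFD on the right, in the same gene order; red marks adjusted p under 0.05 and dotted lines mark a 2-fold difference. The 3 red genes are Mrpl48, Mrpl35 and Mrpl39, all at left, and no interval reaches a dotted line; both columns share the HFD libraries.

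The comparison of HFD+MEC1 with ND asked how far the treated livers stood from normal diet. Again 0 of 49 large subunit and 0 of 29 small subunit genes passed in edgeR, against 2.15% higher, 2.40% lower and 4.54% in either direction over all genes tested. At an unadjusted p under 0.05 there were 7 and 0, against 19.1%. DESeq2 called 1 and 0, the 1 being higher (2.04% of the large subunit, against 3.87% of all genes tested). The medians were 0.04 in both subunits, and all 78 intervals lay within 2-fold. Mrpl35, at 19.7, 22.1, 20.3 and 21.4 CPM in HFD+MEC1, was the 1 large subunit gene above ND without overlap (0.26 ± 0.09, adjusted p = 0.109; 5.13% of genes tested). Mrps2, at 27.4, 29.8, 28.7 and 31.2 CPM, was the 1 small subunit gene below it (-0.13 ± 0.08, adjusted p = 0.417; 5.84% of genes tested).

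Summed over genes, the large subunit stood at 1256 ± 38.2 CPM in ND, 1340 ± 16.6 in HFD and 1294 ± 46.5 in HFD+MEC1. The small subunit stood at 626.5 ± 18.4, 656.2 ± 7.67 and 648.3 ± 40.8 CPM. For both subunits the ND and HFD libraries did not overlap (1199 to 1280 against 1323 to 1362, and 601.4 to 641 against 649.4 to 667.1), while HFD+MEC1 libraries spanned both (1263 to 1363, and 613.4 to 706.5). HFD+MEC1 replicate 4 was the highest of its group for both in CPM, and without it the medians of HFD+MEC1 against ND were 0.01 for the large and -0.03 for the small subunit. Summed RPKM of the large subunit was instead higher in replicate 1 (966.3) than in replicate 4 (914.9), and for the small subunit these were 482 and 486.8. The ratio of large to small summed CPM was 2.00 ± 0.03 in ND, 2.04 ± 0.02 in HFD and 2.00 ± 0.06 in HFD+MEC1, and the ranges overlapped.

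**Figure D5:**
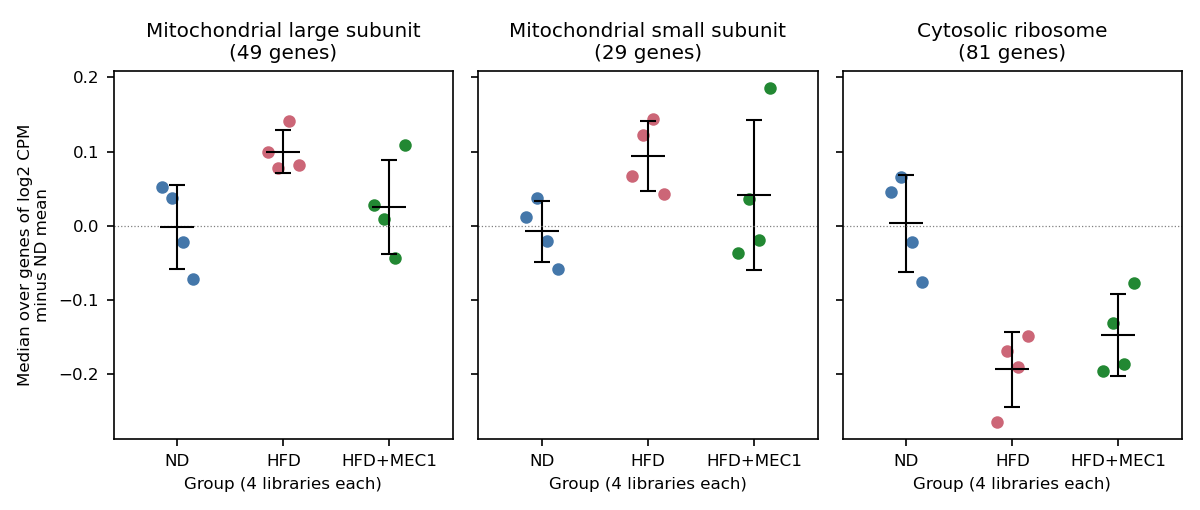
Median over genes of log2 CPM minus the ND mean, per library (points), with mean and SD of 4 libraries (bars), for the 49 large subunit, 29 small subunit and 81 cytosolic ribosomal protein genes. HFD points lie at 0.08 to 0.14 for the large and 0.04 to 0.14 for the small mitochondrial subunit, and at -0.26 to -0.15 for the cytosolic ribosome; HFD+MEC1 replicate 4 is the highest green point in all 3 panels.

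Most members with distinct roles lay close to their ND levels. Of proteins tied to translation factors and catalysis, Mrpl12 measured 81.9 ± 5.73 CPM in ND, 93.5 ± 5.80 in HFD and 84.3 ± 5.63 in HFD+MEC1 (HFD against ND 0.19 ± 0.08, adjusted p = 0.187). Mrpl11, part of the site where factors hydrolyse GTP, measured 18.8 ± 2.07, 20.6 ± 2.14 and 19.5 ± 1.99 CPM, and Mrpl3, close to the peptidyl transferase centre, 21.5 ± 1.54, 20.4 ± 2.11 and 21.1 ± 2.02 CPM. Mrpl58, an integral protein that can also release peptides from stalled ribosomes, measured 22.3 ± 2.31, 20.6 ± 0.565 and 21.6 ± 0.789 CPM (HFD against ND -0.11 ± 0.09, adjusted p = 0.525). The group means of these genes differed by no more than about the spread within a group, except for Mrpl12, whose ND and HFD libraries still overlapped.

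In the small subunit, Mrps12 measured 24.1 ± 3.89 CPM in ND, 25.1 ± 1.13 in HFD and 27.3 ± 3.60 in HFD+MEC1, and Mrps5, next to the messenger RNA entry, 20 ± 1.39, 21.4 ± 1.93 and 20.7 ± 2.76 CPM. Mrps16 and Mrps22, in which human mutations cause respiratory chain deficiency, measured 15.1 ± 2.46, 15.1 ± 1 and 14.1 ± 1.91 CPM and 21.0 ± 2.20, 23.9 ± 1.82 and 24.1 ± 2.87 CPM. Mrps27, a pentatricopeptide repeat protein that binds RNA, measured 33.0 ± 1.74, 30.7 ± 1.99 and 31.8 ± 3.53 CPM. None of these 5 passed in any comparison in edgeR, where their adjusted p ran upward from 0.321.

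The 3 Mrps18 genes encode related proteins that take different places in the ribosome. On HFD against ND, Mrps18c stood at 0.21 ± 0.12, Mrps18a at 0.15 ± 0.10 and Mrps18b at -0.04 ± 0.10 on the log2 scale, with adjusted p of 0.325, 0.393 and 0.86. Symbols and structures differ for 3 Mrps genes: Mrps18a and Mrps30 are known to lie in the large subunit, and Mrps36 to belong to the 2-oxoglutarate dehydrogenase complex. Mrps30 measured 20.5 ± 3.44 CPM in ND, 25.2 ± 2.16 in HFD and 24.1 ± 2.06 in HFD+MEC1 (HFD against ND 0.30 ± 0.11, adjusted p = 0.139), while Mrpl37, a related protein, stood at 0.09 ± 0.09 (adjusted p = 0.649). Mrps36 measured 3.14 ± 0.671, 3.31 ± 0.491 and 2.93 ± 0.462 CPM and has 3 named pseudogenes. Grouped by structure, into 51 large and 26 small subunit genes, the counts of calls were the same as by symbol, and the medians on HFD against ND were 0.11 and 0.10.

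Other genes of mitochondrial translation were counted the same way on HFD against ND, where 3.35% of all genes tested rose and 2.95% fell. Of 6 genes for proteins in or at the mitochondrial ribosome, which the name rule missed, and 24 genes of protein import, 0 passed in edgeR. Their medians were 0.05 and 0.07. Of 16 translation factor genes 1 rose and 0 fell: Gfm1, which moves the ribosome along the messenger RNA, rose from 84.5 ± 3.56 to 106 ± 4.62 CPM (0.33 ± 0.08, adjusted p = 0.018) and measured 85.1 ± 6.94 CPM in HFD+MEC1 (HFD+MEC1 against HFD -0.32 ± 0.08, adjusted p = 0.101). Of 20 genes that charge mitochondrial transfer RNAs 1 rose, Gatb (25.9 ± 1.05 to 35.9 ± 5.06 CPM, 0.47 ± 0.11, adjusted p = 0.0181). Of 27 assembly factor genes 1 rose, Mterf4 (8.32 ± 1.45 to 11.9 ± 1.08 CPM, 0.51 ± 0.14, adjusted p = 0.0358). Without HFD replicate 3 the adjusted p was 0.0582 for Gfm1, 0.0688 for Gatb and 0.0751 for Mterf4, and without ND replicate 4 it was 0.067, 0.0597 and 0.06. Gatb was also lost without HFD replicate 1 (0.0594), and Mterf4 with the replicate block and without HFD replicate 2 or 4 or ND replicate 1, 2 or 3 (0.0528 to 0.105).

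Of 14 regulators of mitochondrial biogenesis 0 rose and 2 fell on HFD, against 3.35% and 2.95% of all genes tested. Nrf1, which binds the NRF1 word given above, fell from 9.61 ± 1.23 to 6.94 ± 0.459 CPM (-0.47 ± 0.12, adjusted p = 0.0325), a call lost with library totals (adjusted p = 0.135) and with RPKM (0.147 with a pseudocount of 0.1), and without HFD replicate 1, 2 or 3 or ND replicate 1 or 3 (0.0548 to 0.0916). Esrra, a nuclear receptor of oxidative metabolism genes, fell from 33.6 ± 2.80 to 23.3 ± 3.79 CPM (-0.52 ± 0.12, adjusted p = 0.0182; 0.0565 and 0.0658 without HFD replicate 2 or 3). In HFD+MEC1 Esrra measured 20.3 ± 2.99 CPM and was the 1 pathway gene past the threshold against ND (-0.73 ± 0.12, adjusted p = 0.00366). Against HFD, 0 genes of these 6 lists passed with MEC1 in edgeR. Symbols for the messenger RNAs of the mitochondrial genome could not be matched in the deposited counts, so these messenger RNAs are not analysed here.

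The cytosolic ribosome, which makes the mitochondrial ribosomal proteins, lay in the other direction on HFD. Of 81 tested Rpl and Rps genes 0 rose and 14 fell against ND, where 2.95% of all genes tested fell, and the median log2 fold change was -0.18. Summed levels were 6937 ± 270 CPM in ND, 6030 ± 163 in HFD and 6205 ± 213 in HFD+MEC1, and neither high-fat group overlapped ND. Summed RPKM did overlap, at 6071 to 6374 in ND, 5559 to 6221 in HFD and 5701 to 6205 in HFD+MEC1. The count also depended on scaling: with library totals 1 rose and 1 fell and the median was -0.06, while the mitochondrial medians moved to 0.21 (large) and 0.22 (small) and the median of all genes to 0.12. Relative to the median of all genes, the large subunit lay 0.05 to 0.13 higher and the small subunit 0.08 to 0.13 higher over the 21 settings, and the cytosolic genes 0.13 to 0.21 lower. The difference between the mitochondrial and cytosolic lists was not tested.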

How the data were processed

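Per the file headers, the authors deposited gene-level counts as whole numbers, 1 table for each of 12 liver libraries, and a table of RPKM. The submitters' processing notes name STAR 2.7.10a and mm10; the counting tool, annotation and strand setting are not given in the sources used here. Of the RPKM columns, 12 match no sample and were not used. In each library 70.1 to 74.7% of low counts were even, so counts may be read ends. Genes were filtered with filterByExpr of edgeR 4.0.16 (R 4.3.3), leaving 14172 with 99.98% of counts, and scaled by TMM; 1 quasi-likelihood model covered all 3 groups, with two-sided tests and Benjamini-Hochberg adjustment over all genes at 0.05. CPM are TMM-scaled. Alternatives were DESeq2 1.42.0, limma-voom (limma 3.58.1), log2 RPKM with pseudocounts, library totals, no filter, 2-group fits, a replicate block and leaving out each library. The code was tested on simulated data.

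Coordinates are 1-based from GENCODE for GRCm38; promoters are from RefSeq. Members and lists were chosen with earlier results of these data known. Named were members past the threshold, up to 3 per subunit, comparison and direction of those with the largest difference whose groups did not overlap, the 3 highest and lowest by RPKM per subunit, 17 genes of distinct role, and pathway genes past the threshold.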

Additional observations from a re-analysis of the deposited data

Results flagged for a closer look

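Among 111 groups of 4 libraries examined (named genes and summed levels), 10 held 1 library apart from the other 3 by a gap that exceeded Dixon's critical value. Chance alone sets about 1 in 20 groups apart in this way. In ND, replicate 3 was the highest for Mrpl37 (31.4 CPM, others 25.2 to 26.2), Mrps18b (26.7, others 21.5 to 22.3) and Mrps26 (17.1, others 14.2 to 14.6), and the lowest for Mrps28 (13.3, others 13.5 to 13.6). ND replicate 2 was the highest for Mrpl47 (10.5, others 8.44 to 8.67).

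In HFD, replicate 2 was the highest for Mrpl1 (37.3 CPM, others 33.3 to 33.7) and replicate 3 for Mrps28 (17.2, others 16.3 to 16.4). In HFD+MEC1, replicate 3 was the lowest for Mrpl48 (12 CPM, others 15.3 to 15.4) and the highest for Mrpl58 (22.8, others 21.2 to 21.3). HFD+MEC1 replicate 4 had the highest sum over the large subunit (1363 CPM, others 1263 to 1277), though in summed RPKM replicate 1 was higher (966.3 against 914.9).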

How the results depend on the processing

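Single genes were followed only in comparisons where they passed the threshold or had the largest differences without overlap. Under another setting, 354 of their values kept direction and side of the threshold, 38 lost the call, 8 gained it and 0 changed sign. That choice of genes left little room for a change of sign. The 354 include genes called in neither fit and fits that left out a library of a group not compared. For list counts and medians and for all genes called, 251 values stayed close and 61 moved; the small subunit median on HFD+MEC1 against ND changed sign without HFD+MEC1 replicate 4 (-0.025). With DESeq2, 1391 genes were called on HFD against ND, 365 on HFD+MEC1 against HFD and 1155 on HFD+MEC1 against ND; it called 5 large and 1 small subunit genes on HFD against ND and 1 large subunit gene on HFD+MEC1 against ND. With library totals the HFD against ND calls were 9 large and 2 small subunit genes, the medians 0.214 and 0.218, and 906 of 1139 genes called were higher, against 475 of 893; RPKM gave 662 higher and 248 lower. RPKM with pseudocounts of 0.1 and 1 called 8 and 7 large (16.3 and 14.3%) and 3 and 2 small subunit genes (10.3 and 6.9%), all higher. Of all genes tested 4.67 and 4.47% were higher in these 2 fits. The medians were 0.185 and 0.174 (large) and 0.191 and 0.173 (small). On HFD+MEC1 against ND the medians were 0.121 and 0.116 (large) and 0.12 and 0.113 (small) with RPKM, and 0.111 and 0.115 with library totals; on HFD+MEC1 against HFD the medians with library totals were -0.117 (large) and -0.089 (small), and the small subunit median ran from -0.078 to -0.022 with 1 library left out. Genes called on HFD+MEC1 against HFD numbered 0 and 1 with RPKM, 0 with library totals, 1 with limma-voom, 17 without the filter, 2 with the 2-group fit and 21 with the replicate block. Leaving out 1 library each gave 423 to 1109, 0 to 460 and 334 to 678 genes called in the 3 comparisons. On HFD against ND there were 1 to 5 large (2.04 to 10.2%) and 0 to 1 small subunit calls (0 to 3.45%). Of all 14172 genes 1.64 to 4.04% rose in those fits. On HFD+MEC1 against ND there were 0 to 1 large subunit calls (0 to 2.04%), against 0.988 to 2.35% of all 14172 genes rising. The small subunit median in that comparison ran from -0.025 to 0.088. The cause of these shifts was not tested. Same-numbered libraries did not deviate together (r from -0.094 to 0.133), which shows no strong pairing by number but cannot exclude a weak one. The replicate block gave 896, 21 and 716 genes called and 1 large subunit call on HFD+MEC1 against ND (2.04%, against 2.39% of all genes tested rising). No member had fewer than 90 counts in a library, and 4 libraries a group limit the precision.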

Other observations

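Spread between libraries of a group is given here as a description, with no test. The median coefficient of variation was 9.99% in ND, 7.12% in HFD and 7.67% in HFD+MEC1 for the large subunit, and 10.2%, 6.82% and 10.2% for the small subunit. It was 11.7%, 11% and 11.8% for the 8845 genes within the members' range of CPM, and 14.1%, 13.8% and 15.1% for all genes tested. The upper quartile of the small subunit was 12.4% in ND and 12.7% in HFD+MEC1, against upper quartiles of 17% and 17.8% for the genes in that range.

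Mrpl16 and Mrpl17 are members of the large subunit list that the rule for printing single genes did not pick. They were singled out after their values were seen. Mrpl16 measured 29, 30.4, 25.5 and 24.5 CPM in ND, 37.5, 36.5, 36.2 and 28.9 CPM in HFD and 26.3, 27.2, 26.5 and 31.1 CPM in HFD+MEC1. The HFD libraries other than replicate 4 were the 3 highest of the 12. Its log2 fold change was 0.35 ± 0.10 on HFD against ND (adjusted p = 0.0566) and -0.32 ± 0.10 on HFD+MEC1 against HFD (adjusted p = 0.171), and both comparisons use the same HFD libraries. Mrpl17 measured 36.4 ± 3.95 CPM in ND, 39.4 ± 2.02 in HFD and 45.5 ± 5.51 in HFD+MEC1, with 0.32 ± 0.10 on HFD+MEC1 against ND (adjusted p = 0.0744).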
